A study of Mus musculus with 6 samples.

Results

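The genes described here are 9 mouse counterparts of human genes in which mutations cause inherited dystonia, a movement disorder of sustained or repeated muscle contractions: Tor1a, Thap1, Gnal, Ano3, Sgce, Kmt2b, Prkra, Gch1 and Hpca. They were chosen by name, with earlier results of these data known, and all 9 were found among the 55098 genes of the deposited table. RNA-seq measured their messenger RNA in the cerebellum of males aged 60 days. The KO group was 3 mice labelled as Slc39a14 knock-out (animals 2, 4 and 6), and the WT group was 3 mice labelled as Slc39a14 wildtype (animals 1, 3 and 5), with 1 library per animal. Slc39a14 encodes the metal importer ZIP14, and its loss in children leads to manganese build-up with dystonia and parkinsonism. The labels name no strain, treatment or other allele, and do not say which exons were deleted.

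The inherited dystonias share a symptom but not a protein class. Torsin A (Tor1a) is an ATPase of the endoplasmic reticulum and nuclear envelope, THAP1 is a DNA-binding transcription factor reported to bind the TOR1A promoter in human cells, and KMT2B is a histone methyltransferase. Golf (Gnal) couples dopamine and adenosine receptors to adenylyl cyclase, above all in the striatum. Hippocalcin (Hpca) is a neuronal calcium sensor, and anoctamin 3 (Ano3) belongs to a family of calcium-activated channels and lipid scramblases. Epsilon-sarcoglycan (Sgce) is a membrane glycoprotein made from the paternal allele. PACT (Prkra) activates the stress kinase PKR, and GTP cyclohydrolase (Gch1) starts the synthesis of tetrahydrobiopterin, the cofactor of tyrosine hydroxylase. Purkinje cells send the output of the cerebellar cortex, and disturbed cerebellar output is one of the circuits implicated in dystonia.

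Total gene counts were 13912821 to 15754275 in KO libraries and 13805997 to 15788135 in WT libraries. Slc39a14 had 654, 572 and 640 counts in KO 2, 4 and 6, against 582, 646 and 598 counts in WT 1, 3 and 5, so the genotypes rest on the labels and are not checked by the count of the targeted gene, and every direction below is between animals labelled KO and animals labelled WT. Cerebellar identity was clear in every library, with Car8 of Purkinje cells at a mean of 307 FPKM and Gabra6 of granule cells at a mean of 359 FPKM. FPKM is the count scaled to gene length and library size, and is used where genes are compared with each other. Of the markers of striatal neurons 5 of 8 had a mean below 1 FPKM, as had 6 of 8 markers of cortical and hippocampal neurons and 7 of 8 markers of monoamine neurons. The cortical and hippocampal markers disagreed in KO 4: 6 of 8 were highest there (Tbr1 at 0.955 FPKM, against at most 0.167 FPKM elsewhere) and 2 were lowest there (Emx2 at 0.0221 FPKM and Nptxr at 34.1 FPKM). Their sum was 43.0 to 45.8 FPKM in KO, with KO 4 at 43.0, and 40.3 to 49.7 FPKM in WT. On the leading principal component of the 1000 most variable genes, with 29.6% of their variance, KO 4 and WT 5 stood away from the other 4 libraries. Values without them are given for several of the results that rest on either. Summed choroid plexus markers were at 450 to 1343 FPKM in KO and 106 to 545 FPKM in WT, with 10 of 10 positive, and summed granule cell markers at 1247 to 1290 FPKM in KO and 1361 to 1405 FPKM in WT, with 0 of 8 positive. Their part in the results below was not tested beyond a fit with choroid plexus as a covariate, which moved the members' log2 fold changes in both directions: Tor1a was at 0.16, Thap1 -0.20, Gnal -0.05, Ano3 -0.28, Sgce -0.15, Kmt2b 0.09, Prkra -0.10, Gch1 0.11 and Hpca 0.03. Because whole tissue was sequenced, fewer cells of a type and less RNA per cell cannot be told apart.

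None of the 9 dystonia genes passed the edgeR quasi-likelihood test between KO and WT cerebellum. The number called at an adjusted p under 0.05 was 0 of 9, against 0.0467% of the 17142 genes tested, and 0 of 9 had an unadjusted p under 0.05, against 2.75% of all genes. Of the 9 genes 7 had a positive log2 fold change (KO minus WT) and 2 a negative one, with a median of 0.03, while 48.8% of all genes tested were positive with a median of -0.004. The fold changes lay between -0.17 for Thap1 and 0.10 for Hpca. A p that misses the threshold does not show that levels are alike, but the 95% intervals bound what these libraries allow. For Gnal, the most tightly measured, the interval ran from -11.2% to 17.3% relative to WT, and for Hpca from -11.2% to 29.2%. For Gch1, the least abundant, it ran from -34.1% to 67.3%. The other 6 genes had intervals with lower ends between -29.5% and -15.9% and upper ends between 11.9% and 34.9%. In the authors' deposited table the adjusted p was 1.0 for each of the 9 genes, and unadjusted p ran from 0.362 to 0.863.

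**Figure D1:**
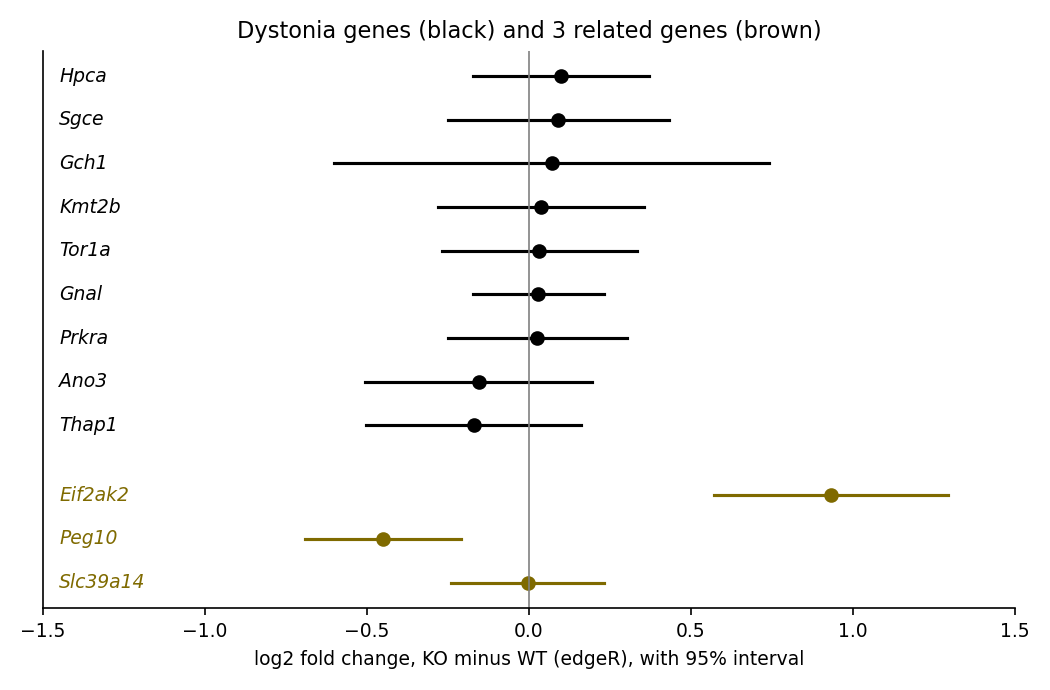
Log2 fold change of each dystonia gene, KO minus WT, with its 95% interval from edgeR (black), and of Eif2ak2, Peg10 and Slc39a14 (brown); 3 libraries per group. All 9 intervals of the dystonia genes include 0, with Thap1 (-0.17) and Ano3 (-0.16) on the negative side and Gch1 the widest, whereas those of Eif2ak2 and Peg10 do not include 0.

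Thap1 was the dystonia gene whose groups did not overlap. Thap1 (ENSMUSG00000037214) lies on chromosome 8, 26158141 to 26164151, plus strand, in GRCm38. Counts were 141, 144 and 133 in KO 2, 4 and 6, against 148, 167 and 145 in WT 1, 3 and 5. In CPM, counts scaled to library size with TMM normalization, it was at 8.87, 10.1 and 9.55 in KO, against 10.7, 10.7 and 10.6 in WT. Every KO library thus lay below every WT library, and the WT values were nearly equal. It averaged 9.49 ± 0.594 CPM across KO animals and 10.7 ± 0.0571 CPM across WT animals (SD, n = 3 each). The log2 fold change of -0.17 (SE 0.15, 95% interval -0.50 to 0.16) did not pass (edgeR adjusted p = 1.0). Groups that did not overlap were found for 1 of the 9 dystonia genes (11.1%), against 7.26% of all tested genes, of which 3.68% had KO lower and 3.58% had KO higher. The Thap1 fold change stayed between -0.21 and -0.12 with any 1 library left out.

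Among the tested THAP family members and THAP1 partners, 0 of 10 were called, 2 were positive and 8 negative, with a median of -0.05. The most abundant were Ogt, the enzyme that adds N-acetylglucosamine to nuclear proteins, at -0.01 on the log2 scale (71.1 FPKM), and Thap12 at 0.06 (25.2 FPKM). Thap3 had the smallest p of the list (log2 fold change 0.40, SE 0.22, edgeR adjusted p = 1.0), with 17.7, 11.0 and 18.2 CPM in KO, against 12.4, 13.7 and 9.46 CPM in WT. KO 4 lay below WT 1 and WT 3 there, so the groups overlapped. With any 1 library left out the log2 fold change of Thap3 ranged from 0.26 to 0.60.

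Tor1a, the target reported for THAP1 in human cells, differed between the groups by less than the spread between animals. Tor1a (ENSMUSG00000026849, chromosome 2, 30960627 to 30967933, minus strand) was at 24.09, 19.76 and 24.20 CPM in KO, against 20.98, 24.18 and 21.34 CPM in WT. KO 4 was the lowest of the 6 libraries, and the other KO libraries were next to WT 3 at the top. In edgeR the log2 fold change was 0.03, with an SE of 0.13 and a 95% interval of -0.27 to 0.33 (adjusted p = 1.0). Without KO 4 and WT 5 the Tor1a value was 0.10 (95% interval -0.20 to 0.40). The closest paralog, Tor1b, which shares the endoplasmic reticulum location, averaged 58.8 ± 2.24 CPM across KO animals and 58.6 ± 0.887 CPM across WT animals (SD, n = 3 each), a difference of 0.01 on the log2 scale (KO minus WT). Of the 14 torsin family members and nuclear envelope partners tested, 0 were called and 7 were positive (median 0.002). Tor3a, a torsin described as interferon-responsive, had the smallest p (edgeR adjusted p = 1.0). It was at 9.25, 12.5 and 11.8 CPM in KO, against 7.69, 7.98 and 9.32 CPM in WT, and KO 2 lay just below WT 5 (log2 fold change 0.42, SE 0.18). The abundant partners Syne1, a long nesprin of the outer nuclear membrane, and Sun2, which tethers nesprins, were at -0.10 and -0.04. The groups did not overlap for Syne2, the other long nesprin, which was named after its values were seen (114 ± 17.3 CPM across KO animals and 136 ± 7.49 CPM across WT animals, SD, n = 3 each). Its log2 fold change was -0.26 (edgeR adjusted p = 1.0). Groups that did not overlap were found for 1 of the 14 genes, against 7.26% of all tested genes.

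**Figure D2:**
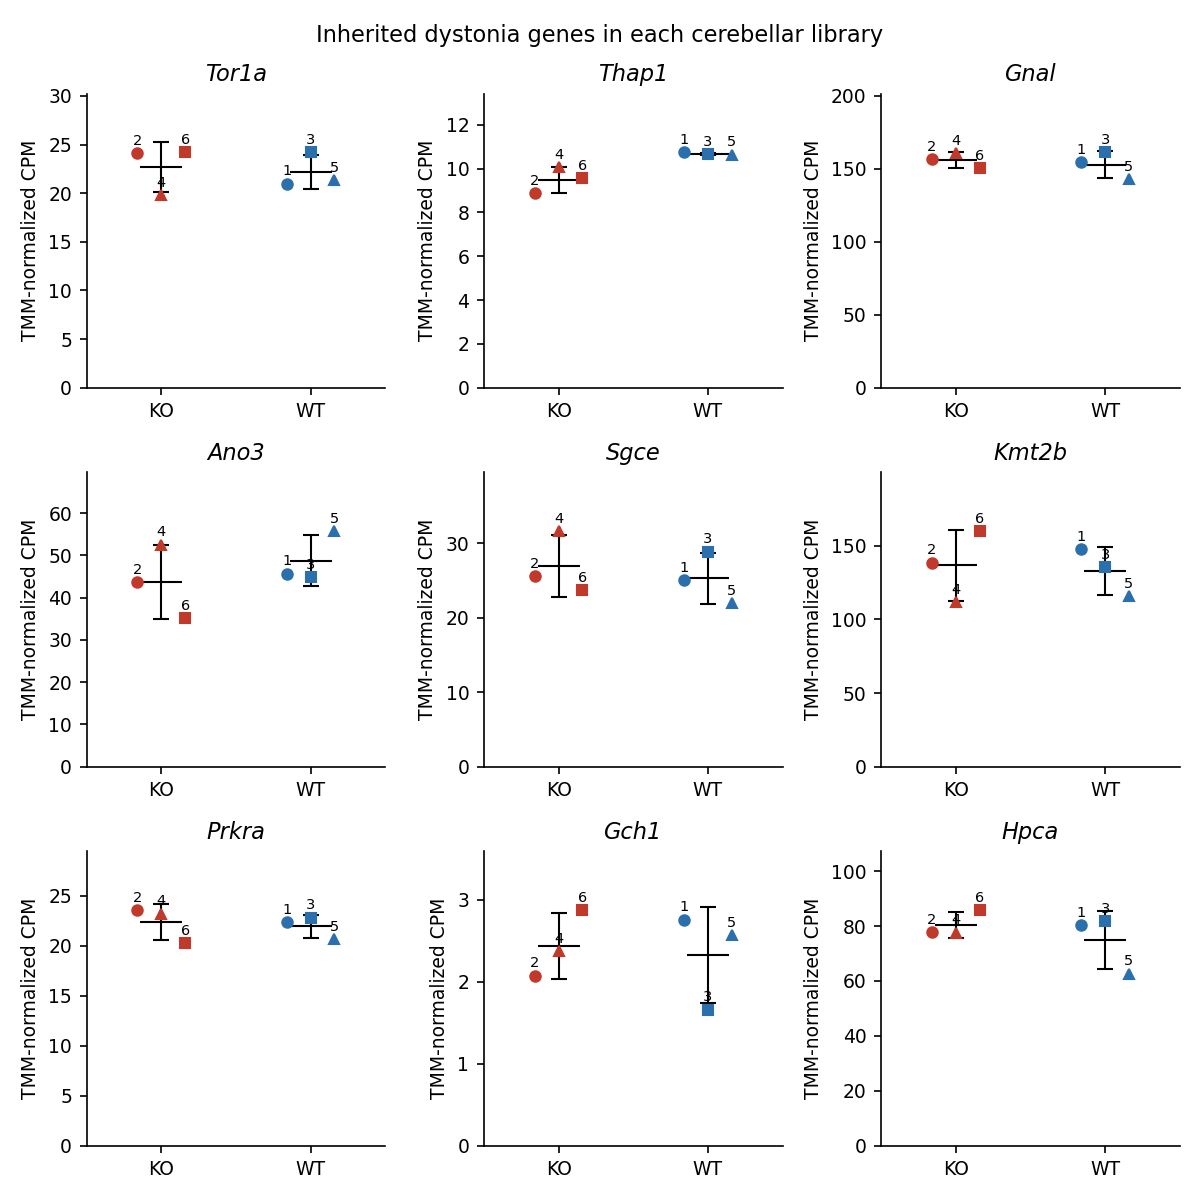
TMM-normalized CPM of the 9 dystonia genes in each library, KO left and WT right, with animal numbers beside the points; bars show the mean and SD of 3 libraries. The groups overlap in every panel except Thap1, and the triangles (KO 4 and WT 5) are the lowest Kmt2b values and the highest Ano3 values.

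Kmt2b (ENSMUSG00000006307, chromosome 7, 30568858 to 30588726, minus strand) differed more between libraries than between genotypes. It was at 139, 112 and 160 CPM in KO 2, 4 and 6, against 148, 136 and 116 CPM in WT 1, 3 and 5. KO 4 and WT 5 were the lowest of the 6, and KO 6 the highest. Kmt2b had a log2 fold change of 0.04 (SE 0.14, 95% interval -0.28 to 0.36, edgeR adjusted p = 1.0), and without KO 4 and WT 5 it was 0.08 (95% interval -0.13 to 0.28). KMT2B and its relatives methylate histone H3 in MLL/COMPASS complexes, with shared subunits such as ASH2L. In that list 0 of 18 tested genes were called, 4 were positive and 14 negative, with a median of -0.04. Kmt2c had the smallest p, at 284, 302 and 309 CPM in KO, against 320, 326 and 382 CPM in WT, and its log2 fold change of -0.20 (SE 0.10) did not pass (edgeR adjusted p = 1.0). Its groups did not overlap, and it was the only such gene among the 18, against 7.26% of all tested genes. Kmt2a, the paralog that gives the MLL family its name, averaged 373 ± 31.7 CPM across KO animals and 412 ± 18.1 CPM across WT animals (SD, n = 3 each), a difference of -0.14 on the log2 scale (KO minus WT). Psip1, which anchors MLL complexes to chromatin, and Wdr82, another gene of that list, were at -0.06 and -0.03.

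Gnal (ENSMUSG00000024524, chromosome 18, 67088336 to 67226792, plus strand) was the steadiest of the abundant members. Its level was 157, 161 and 150 CPM in KO, against 154, 161 and 143 CPM in WT, so that the highest library exceeded the lowest by 1.13 times. The log2 fold change was 0.03 (SE 0.09, edgeR adjusted p = 1.0). GENCODE M21 models Gnal with 11172 exonic bases, more than the 5761 of the deposited table, so reads in the added exons may be missing from its count. In that annotation Gnal shares 852 exonic bases (7.63%) with Mppe1 on the opposite strand, which had 173 to 232 counts per library, and reads of the pair cannot be told apart without a strand setting. None of the genes of Golf partners passed the test. Adcy5, the striatal adenylyl cyclase that is itself a dystonia gene and was named outside the rule for named genes, averaged 82.7 ± 12.3 CPM across KO animals and 82.5 ± 6.34 CPM across WT animals (SD, n = 3 each). The G protein beta subunit genes Gnb1 and Gnb2 were at -0.01 and 0.07 on the log2 scale. Gnas, the widely expressed paralog of Gnal, was at -0.08 (SE 0.19). In the Golf list 0 of 14 tested genes were called and 6 were positive (median -0.01). The dopamine receptor gene Drd2 had the smallest p of that list (edgeR adjusted p = 1.0) and was at 4.78, 0.628 and 3.59 CPM in KO, against 4.36, 4.53 and 4.47 CPM in WT. Only KO 4 was far below the rest, and the log2 fold change of -0.56 was -0.08 without KO 4 and also -0.08 without KO 4 and WT 5. The striatal markers Tac1 and Penk were lowest in KO 4 as well, at 0.468 and 32.4 FPKM. Drd1 was below the filter, with 23 counts in KO and 34 in WT over 3 libraries each.

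Ano3 (ENSMUSG00000074968, chromosome 2, 110655201 to 110950923, minus strand) was at 43.6, 52.5 and 35.1 CPM in KO, against 45.7, 44.9 and 55.7 CPM in WT. KO 4 and WT 5 were the highest libraries and KO 6 the lowest, and the groups overlapped. Ano3 had a log2 fold change of -0.16 (SE 0.16, 95% interval -0.51 to 0.19, edgeR adjusted p = 1.0). It was -0.30 without KO 4, -0.02 without KO 6 and -0.20 without KO 4 and WT 5 together, so its size rested on single libraries while its sign did not. Of the 10 anoctamins 7 were tested, 0 were called and 4 were positive (median 0.01). Ano8, which lies at contacts between the endoplasmic reticulum and the plasma membrane, was the most abundant at 13.5 FPKM, above Ano3 at 6.11 FPKM (log2 fold change of Ano8 -0.03). Ano2, Ano7 and Ano9 were below the filter, with no more than 4 counts in any library.

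Hpca (ENSMUSG00000028785, chromosome 4, 129111570 to 129122036, minus strand) had the largest positive fold change of the 9 genes, and that value rested on 1 WT library. Its level was 77.7, 77.6 and 85.7 CPM in KO 2, 4 and 6, against 80.4, 81.9 and 62.7 CPM in WT 1, 3 and 5. WT 5 stood below all others, while the remaining 5 libraries spanned 77.6 to 85.7 CPM. Hpca had a log2 fold change of 0.10 (SE 0.12, 95% interval -0.17 to 0.37, edgeR adjusted p = 1.0), and without WT 5 it was -0.01 (0.01 without KO 4 as well). Close relatives that also sense calcium were more abundant per length. Vsnl1 was at 163 FPKM and Hpcal1 at 125 FPKM, against 25.3 FPKM for Hpca, and whether these paralogs share reads was not tested. Vsnl1 did not overlap between the groups, with 316, 327 and 306 CPM in KO, against 340, 361 and 358 CPM in WT, at -0.16 on the log2 scale (SE 0.08, edgeR adjusted p = 1.0). Hpcal1 was at -0.15 (SE 0.11). Of the 11 neuronal calcium sensor genes tested 0 were called and 6 were positive (median 0.003). Groups that did not overlap were found for 1 of the 11, against 7.26% of all tested genes.

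Sgce overlapped between the groups, while its divergent neighbour Peg10 had a lower value in every KO library than in any WT library, without passing the test. Sgce (ENSMUSG00000004631, chromosome 6, 4674350 to 4747207, minus strand) and Peg10 (4747306 to 4760517, plus strand) start 99 bases apart and are both imprinted genes read from the paternal allele. Sgce was at 25.60, 31.63 and 23.69 CPM in KO, against 25.04, 28.91 and 22.00 CPM in WT, and the groups overlapped (log2 fold change 0.09, SE 0.15, 95% interval -0.25 to 0.43, edgeR adjusted p = 1.0). Without KO 4 and WT 5 the Sgce value was -0.13 (95% interval -0.42 to 0.17). Peg10, a gene derived from a retrotransposon and needed for placental development, was at 36.2, 38.7 and 38.4 CPM in KO, against 55.7, 51.8 and 47.2 CPM in WT. Its log2 fold change was -0.45 (SE 0.11, 95% interval -0.69 to -0.21), with an unadjusted edgeR p of 0.00196 that did not pass over all genes (adjusted p = 0.710). The fold change of Peg10 stayed between -0.55 and -0.39 in every alternative fit, with a smallest adjusted p of 0.131.

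The ratio of Peg10 to Sgce within a library, chosen after the values were seen, was 1.41, 1.22 and 1.62 in KO, against 2.23, 1.79 and 2.15 in WT. It averaged 1.42 ± 0.199 across KO animals and 2.05 ± 0.232 across WT animals (SD, n = 3 each). A two-sided exact permutation test gave p = 0.1, the smallest that 3 against 3 libraries allow, and after that choice it adds no support. No ratio in KO reached the lowest in WT. Of the 7 tested genes at the Sgce locus 0 were called and 4 were positive (median 0.05). Groups that did not overlap were found for 1 of the 7, against 7.26% of all tested genes. Casd1, an acetyltransferase of sialic acids next to Sgce, and Ppp1r9a, the neuronal actin-binding protein neurabin, were at 0.05 and -0.09. Among 15 tested genes of the sarcoglycan and dystrophin complex 0 were called and 7 were positive (median -0.05), and 1 had groups that did not overlap. Dag1, which encodes both dystroglycan subunits, averaged 127 ± 7.95 CPM across KO animals and 137 ± 2.95 CPM across WT animals (SD, n = 3 each), a difference of -0.10 on the log2 scale (SE 0.09), with groups that did not overlap. Sgcb, the beta-sarcoglycan gene, was at 0.08 (SE 0.13).

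**Figure D3:**
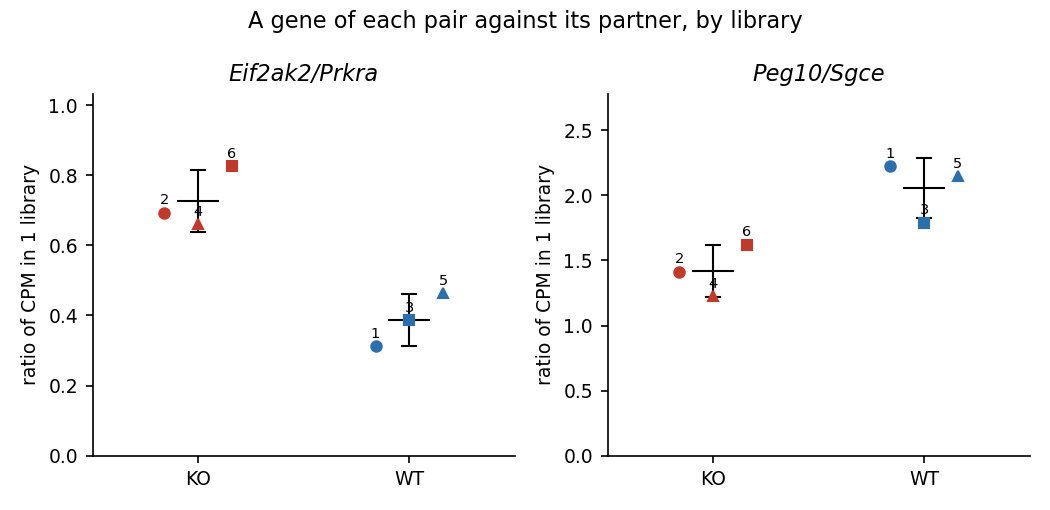
Ratio of TMM-normalized CPM within each library for Eif2ak2 over Prkra (left) and Peg10 over Sgce (right), KO left of WT in each panel, with animal numbers, mean and SD (n = 3). The Eif2ak2/Prkra ratio is 0.660 to 0.826 in KO and 0.312 to 0.463 in WT, and the Peg10/Sgce ratio is 1.22 to 1.62 in KO and 1.79 to 2.23 in WT.

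Prkra values interleaved between the groups, while Eif2ak2, the gene of the kinase that PACT activates, had a higher value in every KO library than in any WT library, past the threshold in some fits only. PKR, the product of Eif2ak2, binds long RNA duplexes and, when active, phosphorylates the initiation factor eIF2, and mutations of human EIF2AK2 are also a cause of dystonia. Sequences around the start of both genes are shown because the core of the interferon-response element, GAAA followed after 2 bases of any kind (NN) by GAAA again and searched on either strand, was found in Eif2ak2 and not in Prkra. The stretches run 5′ to 3′ on the strand of the gene, from RefSeq on GRCm38.p6, with 120 bases before and 30 bases after the RefSeq start, and capitals mark the element. In Eif2ak2 it begins at base 19 after the RefSeq start, within the transcribed part and not upstream. Eif2ak2 is chr17:78882543-78882692 and Prkra is chr2:76647998-76648147, both on the minus strand.
Eif2ak2: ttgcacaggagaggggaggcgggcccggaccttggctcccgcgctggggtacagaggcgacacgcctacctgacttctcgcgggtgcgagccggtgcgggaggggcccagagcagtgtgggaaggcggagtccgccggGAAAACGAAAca
Prkra: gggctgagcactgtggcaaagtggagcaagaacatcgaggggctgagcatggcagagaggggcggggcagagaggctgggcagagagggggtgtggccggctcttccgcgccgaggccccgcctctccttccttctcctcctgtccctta
This motif occurred in 3.44% of 32851 RefSeq windows of 300 bases, and in 0 of the 5 dystonia genes with a window in that table (Tor1a, Ano3, Prkra, Gch1 and Hpca). A match is a description of the letters and no evidence of binding.

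Prkra (ENSMUSG00000002731, chromosome 2, 76629898 to 76648015, minus strand) was at 23.5, 23.2 and 20.2 CPM in KO, against 22.4, 22.8 and 20.6 CPM in WT. With an SE of 0.12 its log2 fold change was 0.03 (95% interval -0.25 to 0.30, edgeR adjusted p = 1.0). Eif2ak2 was at 16.3, 15.3 and 16.7 CPM in KO, against 6.97, 8.81 and 9.54 CPM in WT, a log2 fold change of 0.93 (SE 0.16, 95% interval 0.57 to 1.29). Eif2ak2 did not pass in edgeR (adjusted p = 0.154, and 0.0566 to 0.674 over the other alternatives), but it passed in DESeq2 (adjusted p = 0.00446) and in edgeR without the low-count filter (adjusted p = 0.000784). In the authors' deposited table its adjusted p was 0.00413. The ratio of Eif2ak2 to Prkra within a library was also chosen after the values were seen. It averaged 0.726 ± 0.0882 across KO animals and 0.387 ± 0.0755 across WT animals (SD, n = 3 each). The exact permutation test gave the smallest possible p of 0.1, which adds no support after that choice. Interferon response markers differed in the same direction. Of 10 such markers 10 were positive and 5 were called, against 48.8% positive and 0.0467% called among all genes tested. Those 5 are among the 8 genes called over the whole table. The 10 markers summed to 52.1 to 69.7 FPKM in KO and 15.8 to 17.9 FPKM in WT. The summed level of 8 microglia markers was 59.1 to 80.2 FPKM in KO and 45.3 to 48.7 FPKM in WT, and the part of either in the Eif2ak2 level was not tested.

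No gene downstream of PKR passed the test. Atf4, the transcription factor translated when eIF2 is phosphorylated, averaged 112 ± 9.86 CPM across KO animals and 112 ± 4.10 CPM across WT animals (SD, n = 3 each), a difference of 0.003 on the log2 scale (KO minus WT). Its target Ddit3, which encodes CHOP and was named after its values were seen, was at 18.5, 17.9 and 22.6 CPM in KO, against 25.6, 24.2 and 23.9 CPM in WT. All KO values of Ddit3 lay below all WT values, but -0.32 on the log2 scale (SE 0.13) did not pass (edgeR adjusted p = 1.0). Asns, the asparagine synthetase gene and another ATF4 target, averaged 61.6 ± 1.62 CPM across KO animals and 67.6 ± 4.08 CPM across WT animals (SD, n = 3 each), also without overlap. In the list of PKR and integrated stress signalling Chac1 was at -0.38 (SE 0.32), while Trib3 went the other way at 0.57 (SE 0.46). Of the 22 genes of this list 0 were called, 12 were positive and 10 negative (median 0.008). Groups that did not overlap had KO higher for 1 gene and KO lower for 2. Over all tested genes the shares were 3.58% and 3.68%.

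Gch1 (ENSMUSG00000037580, chromosome 14, 47153895 to 47189413, minus strand) was close to the limit of what these libraries resolve. Counts were 33, 34 and 40 in KO 2, 4 and 6, against 38, 26 and 35 in WT 1, 3 and 5. WT 3 was the lowest library and KO 6 the highest after scaling to library size. The sums were 107 counts in KO (95% Poisson interval 87.7 to 129) and 99 in WT (80.5 to 121), intervals that cover counting error only. Gch1 had a log2 fold change of 0.07 (SE 0.30, 95% interval -0.60 to 0.74, edgeR adjusted p = 1.0). Gch1 is the member on the chromosome of the knocked-out gene, 23.1 Mb from Slc39a14.

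The monoamine neurons that use tetrahydrobiopterin most were barely represented: the dopamine and serotonin transporter genes Slc6a3 and Slc6a4 averaged 0.00876 and 0.0293 FPKM. Of 13 tested genes of tetrahydrobiopterin and monoamine synthesis 0 were called, 9 were positive and 4 negative (median 0.03). Gchfr, the feedback regulator of GTP cyclohydrolase, was at 5.98, 5.66 and 6.96 CPM in KO, against 5.37, 5.17 and 2.86 CPM in WT. Its groups did not overlap. In this list KO lay above WT without overlap for 2 of the 13 genes, against 3.58% of all tested genes. For Gchfr WT 5 was far below the rest, and the log2 fold change of 0.47 (SE 0.26, edgeR adjusted p = 1.0) was 0.24 without WT 5 and 0.30 without KO 4 and WT 5. Qdpr, which regenerates the cofactor, was at 0.20 (SE 0.11), and Nos1, neuronal nitric oxide synthase, at -0.09. Th, tyrosine hydroxylase, was named outside the rule and was at 6.92, 6.28 and 5.03 CPM in KO, against 5.08, 4.85 and 2.49 CPM in WT. Its log2 fold change of 0.55 (SE 0.28) did not pass (edgeR adjusted p = 1.0). The KO 6 value lay just below WT 1, and WT 5 was the lowest. Without WT 5 the Th value was 0.30, without KO 4 and WT 5 it was 0.27, and with the choroid plexus covariate it was 0.07. Dbh, the noradrenaline enzyme gene, was below the filter with 4, 2 and 2 counts in KO, against 18, 8 and 35 in WT.

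Per gene length the 9 genes spanned a ratio of 70.2 between the highest and the lowest. Gnal and Hpca led at 25.5 ± 1.07 and 25.3 ± 2.49 FPKM (SD over 6 libraries), and their ranges overlapped, Gnal being higher in 3 of 6 libraries. Kmt2b followed at 13.4 ± 1.81 FPKM, then Tor1a at 10.7 ± 0.926 and Prkra at 10.4 ± 0.611 FPKM. Hpca exceeded Kmt2b with no overlap of ranges. Kmt2b exceeded Tor1a within each of the 6 libraries, although their ranges over libraries overlapped. Tor1a exceeded Prkra in 4 of 6, so that this pair, like Gnal and Hpca, did not differ beyond its spread. Ano3 (6.11 ± 0.981 FPKM), Thap1 (3.30 ± 0.263 FPKM), Sgce (2.35 ± 0.312 FPKM) and Gch1 (0.364 ± 0.0694 FPKM) came next, with no overlap of ranges between successive genes from Prkra down. Among all genes tested Gnal lay at the 89.8th percentile of mean FPKM and Gch1 at the 6.38th. TMM-normalized CPM per kilobase gave the same order, but it uses the same deposited gene lengths as FPKM and so is no check on them. GENCODE M21 gives Gnal 11172 exonic bases, against 5761 in the deposited table. The place of Gnal with the longer length was not tested.

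**Figure D4:**
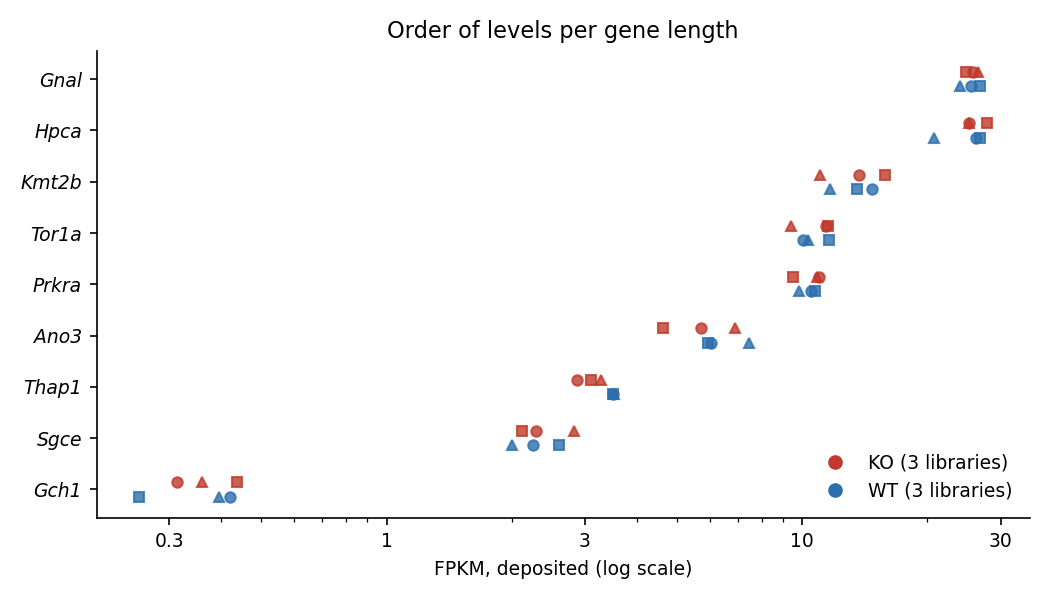
Deposited FPKM of the 9 dystonia genes on a log axis, ordered by mean level, each point 1 library with KO drawn above WT. Gnal and Hpca overlap at the top, Tor1a and Prkra overlap in the middle, and Gch1 stands alone at 0.254 to 0.436 FPKM.

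Other genes of inherited dystonia included Eif2ak2. Of 34 such genes 33 were tested, 0 were called, 14 were positive and 19 negative, with a median of -0.02. Tubb4a, a brain tubulin, was among the most abundant at 329 FPKM and was at -0.05 on the log2 scale (SE 0.15). Slc30a10, the manganese exporter whose loss in humans causes dystonia with high blood manganese, was at 18.1, 13.5 and 15.1 CPM in KO, against 14.1, 12.5 and 12.4 CPM in WT. KO 4 lay below WT 1, and the log2 fold change of 0.26 (SE 0.15, edgeR adjusted p = 1.0) did not pass. The groups did not overlap for 1 of the 33 genes, which was Eif2ak2, against 7.26% of all tested genes.

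**Figure D5:**
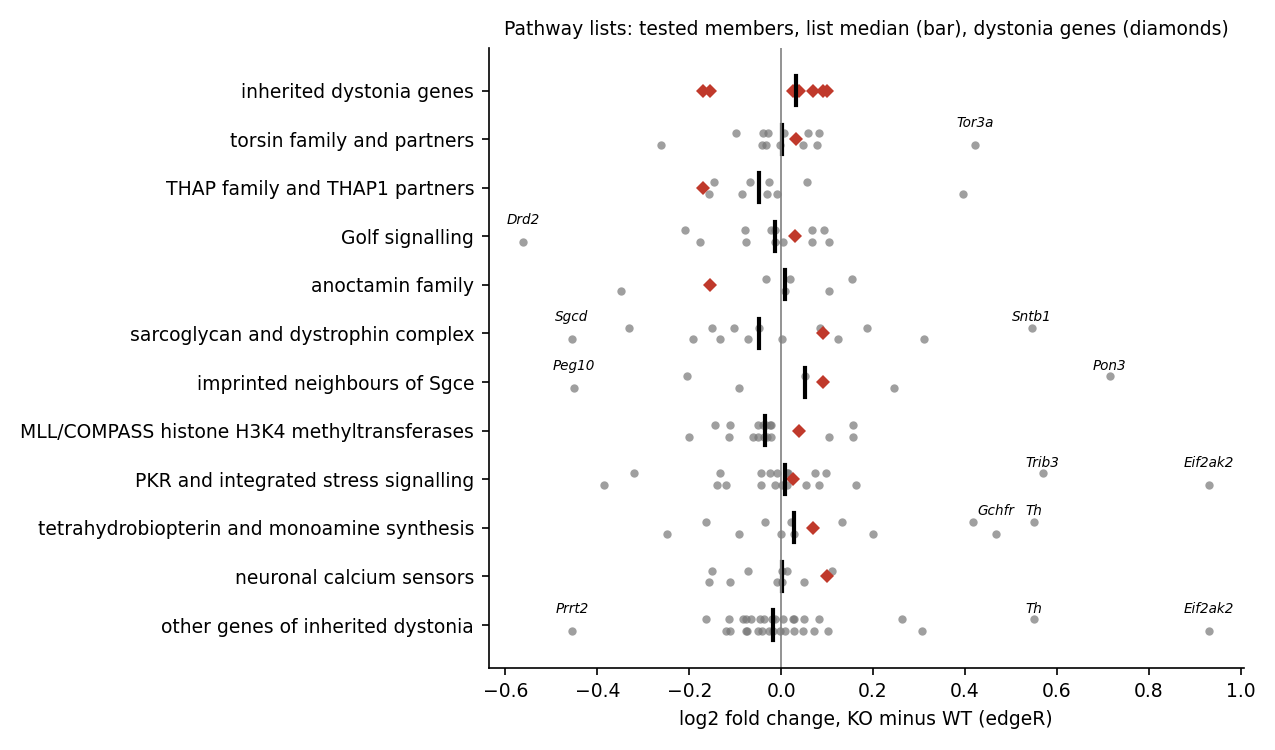
Log2 fold change, KO minus WT, of every tested gene in 12 lists, with list medians as bars and the 9 dystonia genes as diamonds; genes beyond 0.42 in size are named. Medians lie between -0.05 and 0.05, no gene shown passed the edgeR test over all genes, and Eif2ak2 lies farthest from 0 at 0.93.

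Members differed in their spread between animals. The SD of log2 CPM within groups was 0.06 for Thap1 and 0.07 for Gnal, and it reached 0.24 for Ano3 and 0.31 for Gch1, against a median of 0.21 over all genes tested. The median of the 9 genes was 0.16. Kmt2b and Ano3 went opposite ways in KO 4 and WT 5, as described above, and Sgce was highest in KO 4 and lowest in WT 5. The protein-coding gene whose profile over the 6 libraries was nearest to that of Ano3 was Lin7c, a scaffold protein gene, with a root mean square difference of 0.04 on the log2 scale. The nearest to Sgce was Mrpl11 (0.03) and the nearest to Gch1 was Tamm41 (0.10), out of 10160 candidates of at least 10 CPM.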

How the data were processed

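RNA was extracted with TRIZOL and libraries were made by a sequencing company, per the labels' protocols. The submitters' processing notes list HISAT2, DESeq2 and the GRCm38.p6 build. They name neither the counting program nor a strand setting, so reads from overlapping opposite-strand genes cannot be told apart (in GENCODE M21 Gnal shares 852 exonic bases with Mppe1, Ano3 61 with Muc15 and Hpca 57 with Tmem54). The authors deposited raw counts per gene, FPKM (counts scaled to gene length and library size), a size-factor-scaled signal per group, and log2 fold changes with p-values of KO against WT. The deposited coordinates equalled those of GENCODE M21 for the members other than Gnal.

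Counts were tested with edgeR 4.0.16 (quasi-likelihood F test, TMM, filterByExpr, which left 17142 genes) in R 4.3.3, with Benjamini-Hochberg adjustment over all of them. Log2 fold changes are KO minus WT, with the SE derived from the F statistic. With 1 count worth 0.0629 to 0.0733 CPM, depth limits Gch1 most. Alternatives were RLE and upper-quartile scaling, other filters, DESeq2 1.42.0, limma-voom (limma 3.58.1), robust shrinkage, protein-coding genes, a choroid plexus covariate, and libraries left out. The procedure was tested on simulated data. Tables and plots were made with Python 3.11.15, pandas 2.3.3 and matplotlib 3.10.9.

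The members and the 12 gene lists were chosen with earlier results of these data known. Named genes were the members, any called gene of a list, the gene of smallest p and the 2 highest by FPKM in each list, and 9 genes given in any case (Slc39a14, Slc30a10, Tor1b, Gnas, Kmt2a, Eif2ak2, Gchfr, Hpcal1, Peg10). A few genes that this rule names are not reported here. Aopep was found under its older symbol 2010111I01Rik. The labels do not say whether animals are littermates.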

Additional observations from a re-analysis of the deposited data

How the results depend on the processing

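None of the 9 dystonia genes was called in any of the 16 alternative fits (RLE and upper-quartile scaling, other filters, DESeq2, limma-voom, robust shrinkage, protein-coding genes, a choroid plexus covariate, libraries left out). No paired analysis was possible because the animal numbers are not shared between the groups. The number of genes called over the whole table, 8, was 142 without the low-count filter, 38 by DESeq2, 2 with the choroid plexus covariate, 40 without KO 4 and WT 5 together, and 0 to 28 with each library left out in turn; the cause was not tested. Among the members 6 of 90 log2 fold changes from other settings had the opposite sign, as had 12 of 54 with a library left out. With the choroid plexus covariate Gnal was at -0.051, Sgce -0.149, Prkra -0.101, Syne1 0.098, Thap12 -0.017, Ano8 0.015, Casd1 -0.028, Slc39a14 0.097 and Gnas 0.153. Without KO 4 and WT 5 Gnal was at -0.037, Sgce -0.128, Prkra -0.040, Syne1 0.033, Thap12 -0.018 and Slc39a14 0.063. By limma-voom Atf4 was at -0.00013 and Adcy5 at -0.0045, and Slc39a14 was at 0.0026 with upper-quartile scaling and 0.0025 without the filter. With each library left out the log2 fold change ranged from -0.015 to 0.126 for Tor1a, -0.015 to 0.075 for Gnal, -0.036 to 0.202 for Sgce, -0.089 to 0.169 for Kmt2b, -0.013 to 0.092 for Prkra, -0.123 to 0.212 for Gch1, -0.012 to 0.172 for Hpca, -0.161 to 0.083 for Sun2, -0.086 to 0.044 for Ogt, -0.044 to 0.125 for Thap12, -0.048 to 0.011 for Gnb1, -0.045 to 0.175 for Gnb2, -0.186 to 0.117 for Ano8, -0.012 to 0.205 for Sgcb, -0.025 to 0.117 for Casd1, -0.142 to 0.0083 for Ppp1r9a, -0.172 to 0.044 for Psip1, -0.065 to 0.025 for Wdr82, -0.051 to 0.075 for Atf4, -0.181 to 0.0025 for Nos1, -0.158 to 0.094 for Tubb4a, -0.065 to 0.041 for Slc39a14, -0.025 to 0.029 for Tor1b, -0.318 to 0.084 for Gnas and -0.120 to 0.091 for Adcy5. Depth limits Gch1, with 26 to 40 counts per library, most.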
